A study of Mus musculus with 8 samples.

Results

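Genes of the Bcl2 family, which set the threshold for mitochondrial apoptosis, were followed in mouse bone marrow cells cultured toward macrophages or osteoclasts. The genes were chosen by name and comprised the survival genes Bcl2, Bcl2l1 and Mcl1, the effector genes Bax and Bak1, and the BH3-only genes Bcl2l11, Bid, Bad, Pmaip1 and Bbc3. For each symbol the transcript cluster (the array's unit for a gene) with the highest mean was taken. Of the 10 genes listed, 9 matched a cluster by symbol, each of them exactly 1. Bax was not analysed here. A gene was tested if its highest value over the 8 arrays reached a log2 signal of 4.86, the median of the table, and 8 of the 9 genes did so, among 10871 of 19505 genes with a symbol. Bbc3 did not, and all 8 genes that did so reached that level both with and without RANKL.

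Bone marrow cells of C57BL6/J mice received 50 ng/ml of M-CSF, the growth factor of the macrophage lineage, either alone or with 100 ng/ml of RANKL, the cytokine that drives osteoclast formation. Besides these M-CSF and M-CSF+RANKL cultures, 2 cultures with M-CSF and RANKL were infected 1 day after the start of treatment with a retrovirus that expressed PSS1, a phosphatidylserine synthase encoded by Ptdss1, either as the wild type (PSS1-WT) or as a mutant (PSS1-LMS) whose change the labels do not name. Total RNA was collected on days 3 and 6 of treatment, and 500 ng of it was labelled for each array. Each of the 8 combinations of culture and day was thus 1 array, and nothing in the labels tells if an empty vector was used in the cultures without PSS1 or how many mice gave cells. Replication existed only across days or across cultures, so the p-values measure the spread between these arrays.

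The labels for RANKL and for the transgene held up against genes outside the family, while no gene checked here tells PSS1-WT from PSS1-LMS. Ptdss1 lay between 9.56 and 10.36 log2 units on the 4 arrays without the transgene and between 17.50 and 18.91 on the 4 arrays with it. All 11 osteoclast markers were above the background probes on each of the 6 arrays with RANKL, against 1 and 2 of them on the M-CSF arrays, and their summed level was 21.59 to 21.78 against 8.93 and 12.84 on the log2 scale. The macrophage markers, of which 11 were on the array, were all above background on both M-CSF arrays (summed level 20.34 and 20.97) and 8 or 9 of them on the arrays with RANKL (17.90 to 18.92). Neutrophil markers summed to 14.21 to 14.86 on day 3 and to 8.45 to 11.81 on day 6, and no B cell or stromal marker was above background on any array. Of 8 T and NK cell markers only Cd4, and of 4 erythroid markers only Slc4a1, was above background on some arrays. In such bulk RNA fewer cells of a type and less RNA per cell cannot be told apart.

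The survival proteins of the family bind and hold in check the proteins that open the mitochondrial outer membrane, the effectors Bax and Bak. BH3-only proteins report stress or the loss of growth factor signals: they occupy the survival proteins or activate the effectors directly, after which cytochrome c leaves the mitochondria and caspases are switched on. In the osteoclast lineage Bcl2 is known as a target of the transcription factor Mitf, Bcl-xL (the long product of Bcl2l1) as a survival factor, and Bim (Bcl2l11) as the BH3-only protein whose protein level rises when M-CSF is withdrawn. The probes measure RNA and do not separate the long and short isoforms of Bcl2l1, Mcl1 or Bcl2l11. The deposited values are log2 signals of unstated summarisation, so they are compared between arrays for each gene and never between genes.

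Bcl2 and Bcl2l11 are shown with the 250 bases upstream of their RefSeq start (build GRCm38.p6, 5′ to 3′ on the strand of the gene) because these 2 genes moved in opposite directions in the M-CSF culture between the days. Capitals mark the 1 match that each window held to a set of 5 motifs searched on both strands, and the lines below give chr1:106714291-106714540 on the minus strand and chr2:128125788-128126037 on the plus strand.

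Bcl2: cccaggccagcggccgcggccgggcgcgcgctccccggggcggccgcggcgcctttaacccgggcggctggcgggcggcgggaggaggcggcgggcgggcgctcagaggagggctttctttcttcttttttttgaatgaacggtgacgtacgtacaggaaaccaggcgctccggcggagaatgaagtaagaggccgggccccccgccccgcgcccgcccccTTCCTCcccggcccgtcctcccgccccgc

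Bcl2l11: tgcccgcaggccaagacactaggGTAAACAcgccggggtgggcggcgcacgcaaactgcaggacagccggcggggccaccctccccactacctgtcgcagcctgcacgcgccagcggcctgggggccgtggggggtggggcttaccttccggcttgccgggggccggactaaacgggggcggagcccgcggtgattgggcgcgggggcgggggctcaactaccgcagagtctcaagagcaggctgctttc

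The Bcl2 window, 74.8% G and C, held 1 PU.1 core (GAGGAA), 29 bases before the start and written here on the opposite strand. The Bcl2l11 window, 72.0% G and C, held 1 FOXO site (TGTTTAC), 227 bases before the start and also on the opposite strand. Neither window held an AP-1 site (TGANTCA), an E-box of the kind bound by the MiT family (CACGTG or CACATG) or an NFAT core (GGAAAA). Among 32851 promoter windows of this length, 23.3% held the PU.1 core, 3.2% the FOXO site, 6.7% the AP-1 site, 17.6% the E-box and 20.4% the NFAT core, so the match in the Bcl2 window is a common one. A match is a run of letters and no evidence of binding.

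**Figure D1:**
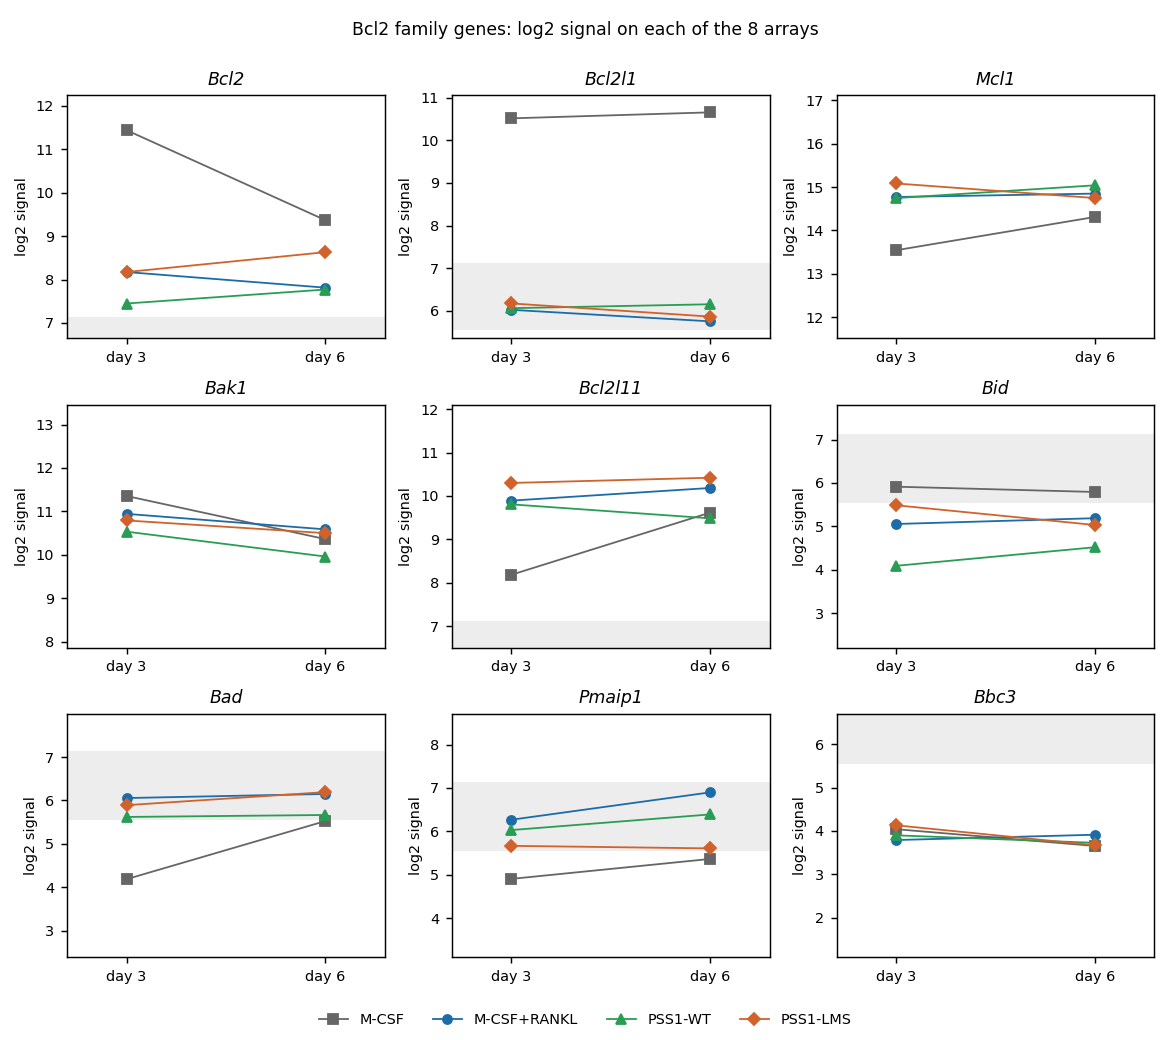
Log2 signal of the 9 Bcl2 family genes with a cluster, 1 panel a gene, in each culture on days 3 and 6 (1 point an array, lines join the days of a culture, no error bar since each group is 1 array). The grey band covers the highest background probe sets of the 8 arrays, 5.54 to 7.13; Bcl2 and Bcl2l1 are highest on the M-CSF arrays, and Bbc3 lies under the band throughout.

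The first question was how the genes differed between cells given M-CSF alone and cells also given RANKL. With RANKL, 2 of the 3 survival genes were lower, Bcl2l1 most of all, while the third, Mcl1, read higher without passing the test; 2 BH3-only genes near the background, Pmaip1 and Bad, rose. The difference M-CSF+RANKL minus M-CSF was tested with limma over both days, with culture and day as additive terms and p-values adjusted over all 10871 genes (threshold 0.05). In all, 2 of the 8 tested members rose and 2 fell, beside 26.4% of all genes called in either direction (14.1% higher, 12.4% lower). The median difference was 0.39 for the 8 members and 0.03 for all genes.

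Bcl2l1 (chr2:152758732-152833803) encodes Bcl-xL. Its log2 signal was 10.52 on day 3 and 10.66 on day 6 with M-CSF alone. With RANKL it was 6.02 in the M-CSF+RANKL culture, 6.06 with PSS1-WT and 6.17 with PSS1-LMS on day 3, and 5.75, 6.15 and 5.86 in the same order on day 6. The M-CSF arrays stood apart from all 6 arrays with RANKL, which lay close to the background probes and, for PSS1-LMS on day 6, within them. The fall with RANKL was -4.70 ± 0.29 (SE; limma adjusted p = 3.45e-05), or 26.1-fold, with single-day differences of -4.50 and -4.91. Among all genes, 2.27% differed by more. Since the low side is near background, the difference was also computed with every signal raised to the brightest background, 7.13, and was then -3.46 (adjusted p = 0.000521).

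Bcl2 (chr1:106538176-106714290), the founding survival gene of the family, was 11.44 with M-CSF on day 3 and 9.37 on day 6. With RANKL it was 8.17, 7.45 and 8.17 on day 3 and 7.81, 7.77 and 8.63 on day 6, in the same order of cultures. Both M-CSF arrays were above all 6 arrays with RANKL, yet the day 6 array was nearer to them than to day 3. The fall with RANKL was -2.41 ± 0.58 (limma adjusted p = 0.0184), 5.32-fold, and split into -3.27 on day 3 and -1.56 on day 6. With the day 3 array of the M-CSF+RANKL culture left out the difference was -2.38 (adjusted p = 0.141), and with its day 6 array left out -2.45 (adjusted p = 0.135). With every signal raised to 7.13, a level that all 8 Bcl2 values exceed, the difference stayed at -2.41 and its adjusted p was 0.0528. The difference was -1.31 without the M-CSF array of day 3 and -3.52 without that of day 6.

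Mcl1 (chr3:95656944-95663179) encodes a survival protein of short half-life. Its signal was 13.54 on day 3 and 14.31 on day 6 with M-CSF, and with RANKL it was 14.77, 14.75 and 15.08 on day 3 and 14.85, 15.04 and 14.75 on day 6. All 6 arrays with RANKL were above both M-CSF arrays, by a narrow margin on day 6. The difference was 0.88 ± 0.34 and did not pass the test (limma adjusted p = 0.0992). It was 1.26 without the M-CSF array of day 6 and 0.51 without that of day 3. Each of these fits kept 1 M-CSF array, so its error came only from the cultures with RANKL.

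Bak1 (chr17:27019812-27028627), the effector that sits in the mitochondrial outer membrane, gave 11.35 and 10.36 with M-CSF on days 3 and 6. With RANKL it was 10.94, 10.53 and 10.79 on day 3 and 10.58, 9.96 and 10.50 on day 6. The groups overlapped, and the difference of -0.09 ± 0.31 was the smallest among the 8 genes (limma adjusted p = 0.856).

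Of the 4 BH3-only genes tested, 3 had signals close to or within those of the background probes. Bcl2l11 (chr2:128126038-128162547), which encodes Bim, was above them on all 8 arrays. It was 8.18 on day 3 and 9.62 on day 6 with M-CSF, and with RANKL 9.89, 9.81 and 10.30 on day 3 and 10.18, 9.49 and 10.42 on day 6. The M-CSF array of day 3 was the lowest of the 8, while that of day 6 overlapped the arrays with RANKL. The difference was 1.14 ± 0.43 (limma adjusted p = 0.0923), 1.71 on day 3 and 0.57 on day 6. Without the M-CSF array of day 6 it was 1.84, and without that of day 3 it was 0.44, each in a fit that kept 1 M-CSF array.

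Pmaip1 (chr18:66458604-66465558) encodes Noxa, which binds Mcl1. It was 4.90 and 5.36 with M-CSF on days 3 and 6, 6.27 and 6.90 in the M-CSF+RANKL culture, 6.03 and 6.39 with PSS1-WT and 5.67 and 5.61 with PSS1-LMS. The 6 arrays with RANKL were above the 2 M-CSF arrays, but 4 of the 8 values were within the background of their own array and all 8 were under 7.13. The rise with RANKL was 1.45 ± 0.30 (limma adjusted p = 0.0101), and no fold is given because the M-CSF side was not above background. With the day 3 array of M-CSF+RANKL left out it was 1.64 (adjusted p = 0.0624), and with its day 6 array left out 1.26 (adjusted p = 0.13).

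Bad (chr19:6941861-6951905), the BH3-only protein that survival kinases switch off by phosphorylation, was 4.19 on day 3 and 5.52 on day 6 with M-CSF. With RANKL it was 6.05, 5.62 and 5.89 on day 3 and 6.15, 5.67 and 6.19 on day 6. The groups did not overlap, but again 4 values were within the background of their array and none exceeded 7.13. The rise was 1.25 ± 0.38 (limma adjusted p = 0.047) and was lost when any of 7 of the 8 arrays was left out. Its value was then between 0.65 without the M-CSF array of day 3 and 1.48 when the day 6 array of M-CSF+RANKL was dropped. Without the M-CSF array of day 6 it was 1.84, in a fit that kept 1 M-CSF array.

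Bid (chr6:120893119-120917062), which links death receptors to mitochondria, and Bbc3 (chr7:16308398-16318334), which encodes the p53 target Puma, were within background on all 8 arrays. Bid was 5.91 and 5.79 with M-CSF, 5.05 and 5.19 with M-CSF+RANKL, 4.09 and 4.52 with PSS1-WT and 5.49 and 5.03 with PSS1-LMS on days 3 and 6. Its difference with RANKL was -0.73 ± 0.32 (limma adjusted p = 0.139). Bbc3 ranged from 3.65 to 4.13 and was not tested.

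Counted by separation, 6 of the 8 members had no overlap between the 2 M-CSF arrays and the 6 arrays with RANKL, 3 of them higher with RANKL (Mcl1, Bad and Pmaip1) and 3 lower (Bcl2, Bcl2l1 and Bid). Over all genes 43% separated in this way (22.2% higher, 20.8% lower). When the mean of the 3 cultures with RANKL was set against M-CSF, which uses more arrays, 7 of the 8 members passed, all but Bak1, beside 39.5% of all genes. The retrovirus and PSS1 lay only on the RANKL side of this fit, in 2 of its 3 cultures, as in the count by separation. In that fit Mcl1 was 0.95 higher (limma adjusted p = 0.0093), Bcl2l11 1.11 higher (adjusted p = 0.0274) and Bid lower at -0.96 (adjusted p = 0.0477). The lower macrophage markers and higher osteoclast markers given above moved with the same contrast. Of the megakaryocyte, mast cell and basophil markers, 1 of 3 tested was called lower, and the median was -0.58. The sum of that list, led by Pf4, was 15.03 and 14.82 with M-CSF against 7.74 to 8.37 with RANKL. Its only other marker above background on any array, Itga2b, was so on all 6 arrays with RANKL but with M-CSF on day 3 only. Of the dendritic cell and MHC class II markers, 3 of 5 tested rose with RANKL. The part of all these markers in the differences of the members was not tested.

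**Figure D2:**
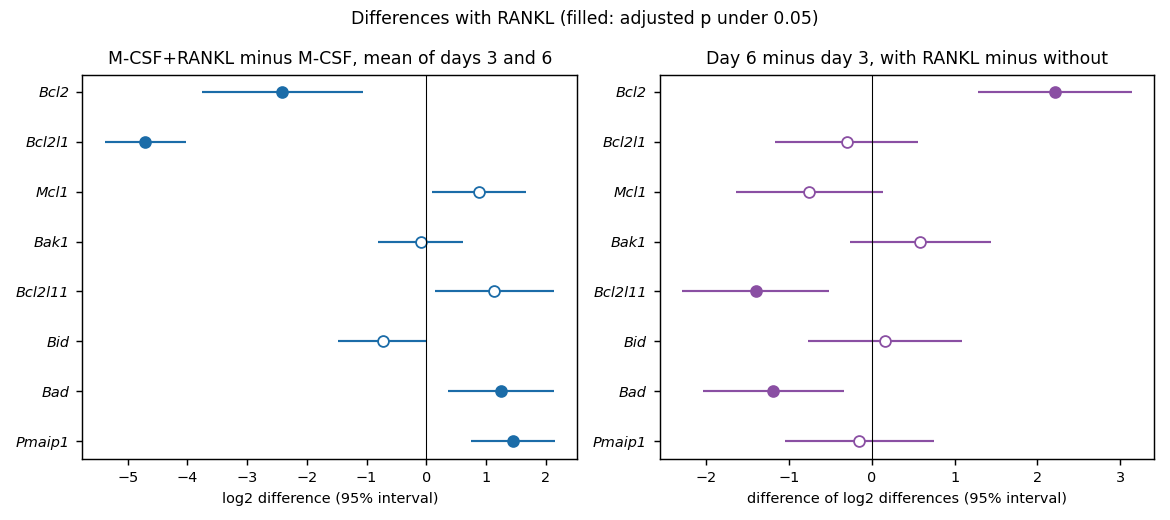
Left, the log2 difference M-CSF+RANKL minus M-CSF for the 8 tested genes with its 95% interval over both days; right, the day 6 minus day 3 difference of the cultures with RANKL minus that of the M-CSF culture. Filled points pass the adjusted p of 0.05: Bcl2l1 and Bcl2 lie below and Pmaip1 and Bad above 0 on the left, and Bcl2 above and Bcl2l11 and Bad below 0 on the right.

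The second question was how the genes moved between days 3 and 6. In the 3 cultures with RANKL none of the 8 members passed the limma test, beside 3.38% of all genes (1.31% higher, 2.07% lower), and none had an unadjusted p under 0.05, beside 17% of all genes. The smallest adjusted p was 0.32, for Bak1, which was lower on day 6 in each of the 3 cultures (-0.41 ± 0.20). Over all 4 cultures none passed either, beside 0.285% of all genes, and 1 had an unadjusted p under 0.05, Bak1 (-0.55, unadjusted p = 0.0354, adjusted p = 0.581), beside 7.94% of all genes. Over the same days 8 of 10 neutrophil markers fell in the cultures with RANKL and 4 of 11 macrophage markers rose.

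In the M-CSF culture the day differences of some members were larger. Bcl2 changed by -2.07 there, against -0.36 in the culture with RANKL and no PSS1, 0.32 with PSS1-WT and 0.46 with PSS1-LMS. The test of the difference between these day differences gave 2.21 ± 0.44 for Bcl2 (limma adjusted p = 0.0022). Bcl2l11 went the other way in M-CSF, by 1.43, against 0.29, -0.32 and 0.12 with RANKL (-1.40 ± 0.42, adjusted p = 0.0253). Bad changed by 1.34 in M-CSF, between values within background, and by 0.09, 0.05 and 0.30 with RANKL (-1.19 ± 0.40, adjusted p = 0.0438), a call lost when any PSS1-WT or PSS1-LMS array was left out.

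Markers of several cell types also differed in their day change between M-CSF and RANKL by this test: 5 of 11 macrophage and 3 of 11 osteoclast markers were called lower, as were 2 of 10 neutrophil and 2 of 5 dendritic cell and MHC class II markers. The only T and NK cell marker tested, Cd4, was called lower too, at -2.19, with a change of 2.49 in M-CSF. In M-CSF the summed osteoclast markers went from 8.93 to 12.84, with Atp6v0d2 changing by 8.32, the macrophage markers from 20.34 to 20.97 and the neutrophil markers from 14.86 to 11.81. Among the neutrophil markers Csf3r changed by 3.74, while Ngp, S100a8 and S100a9 changed by -8.45, -4.73 and -5.83. The part of all these markers in the day differences of the members was not tested.

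Hence the level of Bcl2 in M-CSF came down toward that of the cultures with RANKL by day 6, and that of Bcl2l11 came up toward theirs. The other 5 genes did not pass; Mcl1 and Bak1 had the next largest M-CSF day differences, 0.77 and -0.99, with interaction terms of -0.75 ± 0.42 (adjusted p = 0.215) and 0.59 ± 0.40 (adjusted p = 0.322). In all 1 member was called higher and 2 lower, beside 22.3% of all genes (9.49% higher, 12.8% lower). The error of this test comes only from the 3 cultures with RANKL, since M-CSF had 1 array a day, and neither M-CSF array could be left out. With signals raised to 7.13 none of the 5 members still tested passed, although all values of Bcl2 and Bcl2l11 lie above that level and their differences stayed at 2.21 (adjusted p = 0.0745) and -1.40 (adjusted p = 0.09).

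**Figure D3:**
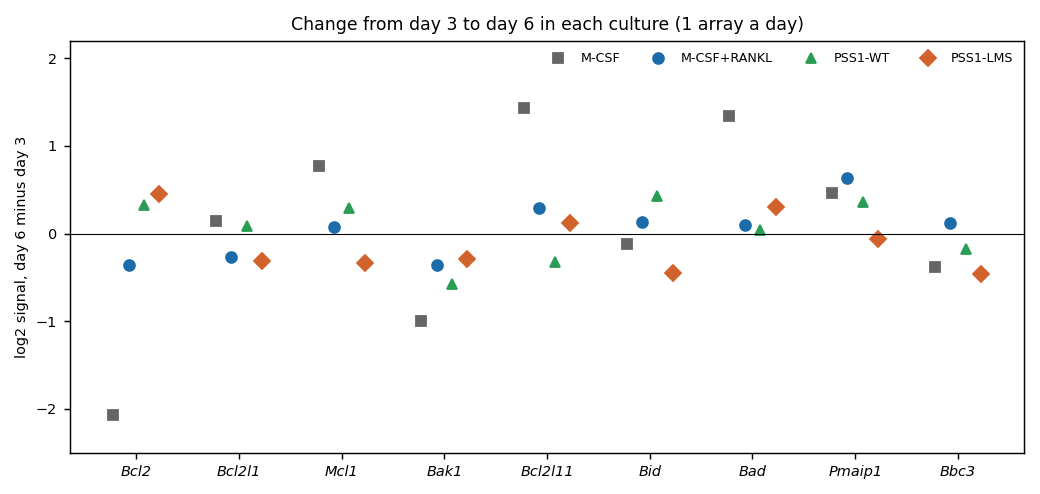
Log2 difference day 6 minus day 3 of the 8 tested genes and Bbc3 in each of the 4 cultures (1 point a culture, no error bar). The M-CSF point of Bcl2, at -2.07, and those of Bcl2l11 and Bad, at 1.43 and 1.34, lie apart from the 3 points of the cultures with RANKL, while those of Bcl2l1, Bid and Pmaip1 lie near them.

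The third question was whether PSS1, wild type or mutant, moved these genes in cells given RANKL. No member passed the limma test in any of the 3 comparisons, PSS1-WT or PSS1-LMS against M-CSF+RANKL, or PSS1-LMS against PSS1-WT. Over all genes 0.0092%, 0.175% (0.156% higher) and 0% were called in these comparisons, so hardly any gene on the array passed. The 95% intervals of the members extended at most 0.57 log2 units to either side of the estimate. Both comparisons with M-CSF+RANKL share those 2 arrays. Since no empty vector is known for M-CSF+RANKL, infection and PSS1 cannot be told apart in them.

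With PSS1-WT 1 member had an unadjusted p under 0.05, Bid, whose values were within background (-0.82, 95% interval -1.39 to -0.25, adjusted p = 0.631), beside 6.86% of all genes. The survival genes differed from M-CSF+RANKL by -0.38 (interval -0.95 to 0.18, Bcl2), 0.22 (-0.31 to 0.75, Bcl2l1) and 0.08 (-0.46 to 0.63, Mcl1). Bak1 was -0.52 (-1.04 to 0.005) and Bcl2l11 -0.39 (-0.94 to 0.15). Of the 8 members, 6 were below 0, in a comparison where 41.3% of all genes were above 0.

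With PSS1-LMS the member with an unadjusted p under 0.05 was Pmaip1, at -0.95 ± 0.26 (95% interval -1.50 to -0.40, limma adjusted p = 0.279), beside 6.57% of all genes. Its PSS1-LMS values, 5.67 and 5.61, were within background, and those of M-CSF+RANKL, 6.27 and 6.90, were above it. Bcl2 differed by 0.41 (-0.16 to 0.98), Bcl2l1 by 0.13 (-0.40 to 0.66), Mcl1 by 0.10 (-0.44 to 0.65), Bak1 by -0.12 (-0.64 to 0.40) and Bcl2l11 by 0.32 (-0.22 to 0.87). Here 6 of 11 macrophage markers had an unadjusted p under 0.05 (limma), with a median difference of 0.62, and none was called. Of 10 neutrophil markers tested, 1 was called higher. The part of these markers in the differences of the members was not tested.

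Between mutant and wild type, 4 members had an unadjusted p under 0.05 and none after adjustment, beside 7.11% of all genes unadjusted. Bcl2 was 0.79 higher with PSS1-LMS (0.22 to 1.36, limma adjusted p = 0.598), by 0.73 on day 3 and 0.86 on day 6. Bcl2l11 was 0.71 higher (0.17 to 1.26, adjusted p = 0.598). Bid was 0.95 higher (adjusted p = 0.471) and Pmaip1 lower at -0.57 (adjusted p = 0.68), both near background. Bcl2l1 differed by -0.09 (-0.62 to 0.44) and Mcl1 by 0.02 (-0.52 to 0.57). In this comparison 7 of 11 macrophage markers also had an unadjusted p under 0.05, with a median difference of 0.65, and none was called; their part was not tested.

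**Figure D4:**
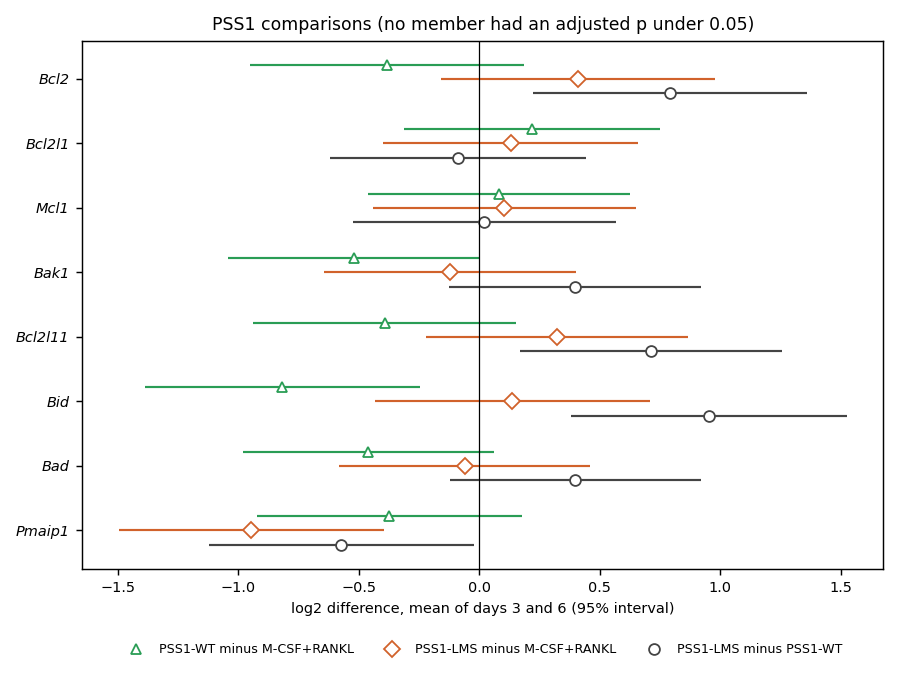
Log2 differences of the 8 tested genes for PSS1-WT and PSS1-LMS against M-CSF+RANKL and for PSS1-LMS against PSS1-WT, with 95% intervals over days 3 and 6 (3 cultures, 6 arrays). No point passes the adjusted p of 0.05, and the intervals are at most 0.57 wide to each side.

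Other genes of the pathway were taken from 11 lists, of whose 125 entries 98 genes were tested. With RANKL 20 of them rose and 17 fell, 37.8% beside 26.4% of all genes, and the median difference was 0.13. No call was made in the PSS1 comparisons (7, 8 and 4 genes at an unadjusted p under 0.05; smallest adjusted p 0.667, 0.197 and 0.524). The lists were chosen with earlier results of these data known. When either array of M-CSF+RANKL was left out, most of the 37 calls with RANKL were lost, among them most of those named below. Such a fit kept 1 array of that culture and called fewer genes over the whole array, so no count is given. Which calls were lost is therefore not read as a trait of these genes. With any array left out, the difference ranged from 7.35 to 7.71 for Src, 1.90 to 4.94 for Cycs and -5.22 to -2.76 for Sesn1.

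Among the other Bcl2 family genes few moved with RANKL. None of the 4 tested survival genes passed (0 at an unadjusted p under 0.05), and of 7 effector and BH3-only relatives only Bcl2l13, a mitochondrial outer membrane protein that acts in mitophagy, rose (1.77, at least 3.10-fold). The Bcl2a1 genes, which encode the short-lived survival protein A1, moved with day instead. In the cultures with RANKL, Bcl2a1b rose by 1.67 ± 0.22 from day 3 to day 6 (limma adjusted p = 0.000444), Bcl2a1d by 1.46 ± 0.23 (adjusted p = 0.00147) and Bcl2a1a by 1.21 ± 0.23 (adjusted p = 0.00781). Bcl2a1b was 8.52, 8.34, 8.14 and 8.18 on day 3 and 10.07, 10.11, 10.24 and 9.30 on day 6 in the culture with M-CSF alone, the M-CSF+RANKL culture and those with PSS1-WT and PSS1-LMS, so it was higher on day 6 in all 4. These 3 genes are near-identical copies whose probes may not separate them, and they count as uncertain and as 1 observation. With signals raised to 7.13 none of the 3 passed, but 0 of the 7435 genes tested did, so that setting cannot decide on these genes. Over the same days 8 neutrophil markers fell and 4 macrophage markers rose, as given above, and their part in this rise was not tested.

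Downstream of the mitochondria, 3 of 7 genes of the apoptosome list rose with RANKL and 1 fell. Cycs, which encodes cytochrome c, rose by 3.42 ± 0.73 (limma adjusted p = 0.0112), the protease gene Htra2 by 2.06 ± 0.36 (adjusted p = 0.00428) and Aifm1, the apoptosis-inducing factor of the intermembrane space, by 2.04 ± 0.57 (adjusted p = 0.0324). Apaf1, the scaffold on which cytochrome c assembles the apoptosome, fell by 1.76 on the log2 scale (3.38-fold, adjusted p = 0.00503). Cytochrome c and Aifm1 also serve respiration in living cells.

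Of 6 tested caspase and DNase genes, Casp4, an inflammatory caspase, rose by 2.47 (5.54-fold), whereas Casp1, its inflammasome relative, fell by 1.96 and Casp2 fell by 1.52. Of 8 inhibitor of apoptosis genes, Birc3 rose by 3.18 (9.09-fold) and Birc2 by 1.84 (at least 3.02-fold), which encode ubiquitin ligases of NF-kB signalling. Naip5, Naip2 and Naip6, sensors of bacterial proteins in macrophages, fell, at -2.90, -2.22 and -2.14; these are close paralogs that the probes may not separate. Among 9 death receptor genes, Tnfrsf1a, a receptor for TNF, fell by 1.85 (3.62-fold), and Fas fell by 1.50 between values within background. Tnfrsf1b, the other TNF receptor, differed by -3.18 and did not pass (adjusted p = 0.0625).

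Regulators of the family moved in both directions. Of 12 p53 genes, Sesn1, Cdkn1a, Zmat3 and Apaf1 fell with RANKL, at -3.99, -3.28, -1.95 and -1.76, and Perp rose by 1.48 from values within background. Cdkn1a encodes the cell cycle inhibitor p21. Of 12 transcription factors that act on family genes, Atf4, the factor of the integrated stress response, rose by 2.01 (4.03-fold), and Tfe3, a relative of Mitf, fell, at -2.12, as did Stat5b at -1.71 and E2f1 at -1.11, the last between values within background. Mitf, Foxo3 and Spi1 were not called in this comparison.

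Among 13 survival kinases and 14-3-3 genes, Src, a kinase needed for the resorbing osteoclast, rose by 7.53 (at least 25.5-fold, limma adjusted p = 4.67e-06). Pim3 rose by 1.35 from values within background, Pim1 fell by 3.62 (at least 10.1-fold) and Akt2 fell by 1.32. Of 10 genes that control the stability or tethering of the Mcl1 and Bim proteins, Cblb rose by 2.65, Dynll1, the dynein light chain that binds Bim, by 1.18 and Cul5 by 0.98, while Cbl fell by 2.03. Of 11 genes of the mitochondrial outer membrane and of fission or fusion, 6 rose and none fell, with a median of 1.18 beside 0.03 for all genes. They included the fusion gene Mfn2 (3.11), the channel gene Vdac1 (2.46), the fusion gene Opa1 (1.53) and the fission gene Mff (1.42).

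**Figure D5:**
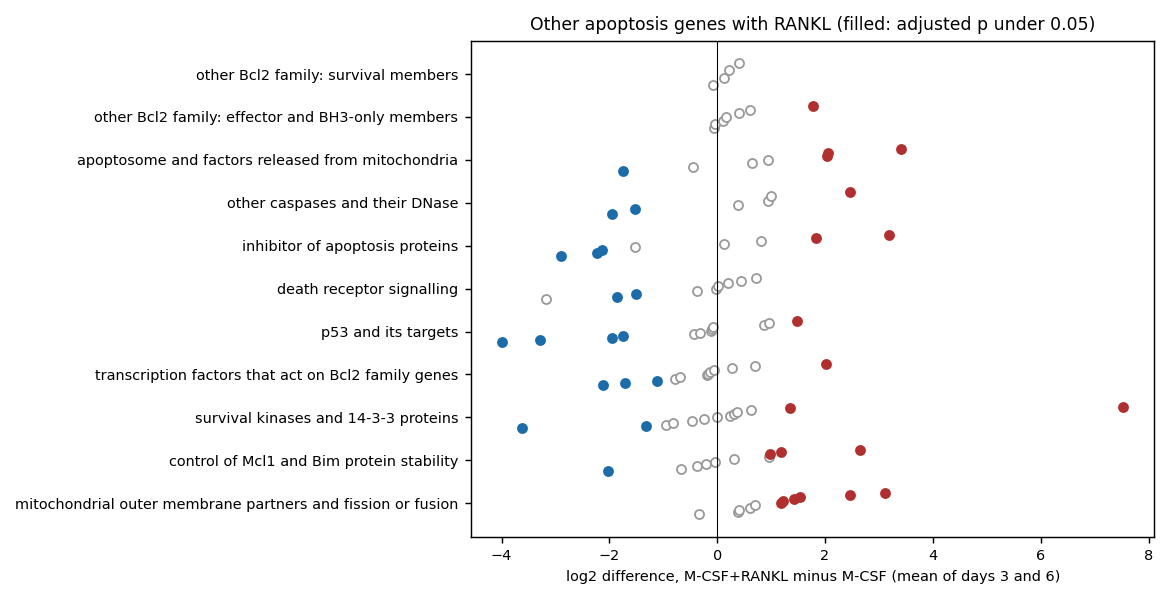
Log2 difference M-CSF+RANKL minus M-CSF of the tested genes in the 11 pathway lists, 1 row a list and 1 point a gene, filled where the adjusted p is under 0.05. The calls run from -3.99 (Sesn1) to 7.53 (Src), and the mitochondrial outer membrane row has 6 filled points above 0 and none below.

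By profile over the 8 arrays, the genes most like each member were named by Pearson correlation, which follows the contrast between M-CSF and RANKL in these few points and is a description only. Bcl2l1 was most like Gpr65 and Fads2 (0.999 each), and 427 of the 10871 genes exceeded 0.95 with it. Bcl2 was most like Samsn1 (0.992) and Rac1 (0.990), with 121 genes above 0.95. Bad was closest to Npc2 (0.992) and Atxn3 (0.977), Mcl1 to Fbrsl1 (0.983) and Akr1c12 (0.977), and Bcl2l11 to Supt7l (0.979) and Sik2 (0.977). For Pmaip1 (Brd2, 0.962, and Cdc14b, 0.953), Bak1 (Lmo4, 0.958, and Tmem212, 0.954) and Bid (Efcab7, 0.951, and Acvr1b, 0.945) at most 3 genes exceeded 0.95.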

How the data were processed

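Expression in 8 arrays (4 cultures, 2 days) was read from the log2 signals that the authors deposited. How these were background-corrected, normalised and summarised could not be learned from the labels or the table (not given in the sources). Genes were named through the platform annotation, with coordinates of RefSeq genes (GRCm38.p6). Of 22142 transcript clusters 19572 had 1 symbol; the cluster with the highest mean stood for a gene. The brightest of 23 background probe sets on each array, 5.54 to 7.13, marked values as within background, and folds against such values are bounds. Differences were tested with limma 3.58.1 (lmFit, eBayes) in R 4.3.3, with Benjamini-Hochberg adjustment over 10871 genes and a threshold of 0.05. RANKL and the day over all cultures were tested on 8 arrays with culture and day as terms, PSS1 and the day with RANKL on 6 arrays, and the interaction on 8. The number of arrays limits the precision. Alternatives were centring, quantile normalisation, other filters and floors, other error models, the mean of the RANKL cultures, and leaving out each array. The members and lists were chosen with earlier results of these data known. The genes named were all members and, from each list, at most the 4 called genes with the largest differences; in the RANKL comparison Birc2, Perp, Tnfrsf1b, Mitf, Foxo3 and Spi1 were named beyond this rule, after their values were seen. Motifs and windows were likewise chosen with results in view.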

Additional observations from a re-analysis of the deposited data

Results flagged for a closer look

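For 3 genes the day change of the single M-CSF culture lay outside that of the cultures with RANKL, by a limma interaction term (adjusted over all genes) whose error comes only from the cultures with RANKL. The day 6 minus day 3 difference of the cultures with RANKL exceeded that of M-CSF by 2.21 for Bcl2, which was lower on day 6 in M-CSF and moved by -0.36 to 0.46 in the cultures with RANKL. It was -1.40 for Bcl2l11 and -1.19 for Bad, which were higher on day 6 in M-CSF; the 2 M-CSF values of Bad were within background. M-CSF had 1 array a day, and the M-CSF array of day 6 had the brightest background of the 8, 7.13, whose part in these differences was not tested.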

How the results depend on the processing

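Pairing by replicate number was not possible because each combination of culture and day was 1 array, so the groups shared fewer than 2 replicate numbers. Arrays were matched by day through a term in the fits. Without that term 3 members were called with RANKL, beside 25% of all genes. Of the members, Bcl2l1 passed with RANKL under 16 of 16 alternatives (-4.86 to -3.46), Bcl2 under 13 of 16, Pmaip1 under 12 of 14 and Bad under 4 of 14. In the main fit 4 of 8 members were called with RANKL, beside 26.4% of all genes. Among genes above the brightest background, 2 of 5 were called, Bcl2 and Bcl2l1, beside 34% of the 7435 genes tested. Pmaip1, Bad and Bid were not tested in that setting. With signals raised to that background 1 of 5 was called, Bcl2l1, beside 27.8% of genes. With the mean of the 3 RANKL cultures 7 of 8 were called (39.5% of all genes). With any PSS1 array left out there were 3 (21.3 or 21.8%). Leaving out an array of M-CSF or M-CSF+RANKL kept 1 array of that culture, so no count is given. Bcl2, Pmaip1 and Bad were lost without either M-CSF+RANKL array. The 3 interaction calls became 0 with raised signals (5 members tested), beside 19.3% of all genes. They became 2 to 3 with an array left out, beside 20.2 to 28.6% of all genes, and leaving out an M-CSF array could not be fitted. The member counts of the other comparisons remained 0 throughout. Signs turned for Bcl2l1 over all days with raised signals (0.035), Mcl1 with day in RANKL after centring (-0.013), Bid there after quantile normalisation (-0.023) and Birc2 in the interaction with raised signals (0.062); the cause was not tested. With an array left out, signs turned within these ranges: with RANKL, Bak1 -0.39 to 0.20; day over all cultures, Bcl2 -0.70 to 0.14 and Bid -0.15 to 0.15; day with RANKL, Bcl2 -0.019 to 0.39, Bcl2l11 -0.10 to 0.21, Bid -0.16 to 0.28 and Mcl1 -0.13 to 0.19; interaction, Bid -0.039 to 0.40 and Pmaip1 -0.31 to 0.035; PSS1-WT, Mcl1 -0.13 to 0.29; PSS1-LMS, Bad -0.18 to 0.055, Bid -0.23 to 0.50 and Mcl1 -0.16 to 0.37; PSS1-LMS against PSS1-WT, Bcl2l1 -0.28 to 0.10 and Mcl1 -0.24 to 0.28. None of these values had passed the test, except that of Birc2. Over all genes, calls moved with the setting: with RANKL from 2875 to between 1198 and 4545, day over all cultures from 31 to between 6 and 367, day with RANKL from 367 to between 0 and 678, the interaction from 2425 to between 1433 and 3111, PSS1-WT from 1 to between 0 and 61, PSS1-LMS from 19 to between 0 and 83, and PSS1-LMS against PSS1-WT from 0 to as many as 48. Centring moved the median interaction of all genes from -0.03 to -0.15. The alternative of another cluster for a gene was not run, since each member had 1.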

Other observations

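Between the days, 24 of the 98 tested pathway genes were called in the test of the day change with RANKL against that of the single M-CSF culture (6 higher, 18 lower, 24.5% beside 22.3% of all genes; limma interaction, adjusted over all genes). Some of the largest differences lay with genes that were higher on day 6 than on day 3 in the M-CSF culture. Tnfrsf1b, a receptor for TNF, went from 7.82 to 12.42 with M-CSF and lay between 6.91 and 7.44 on the 6 arrays with RANKL (-4.64 ± 0.40, adjusted p = 3.42e-06). Cflar, which encodes the caspase-8 inhibitor c-FLIP, went from 7.77 to 10.55 with M-CSF and by -0.06 to 0.13 with RANKL (-2.71 ± 0.40, adjusted p = 0.000269). The p53 target Trp53inp1 went from 7.88 to 10.68 (-3.06 ± 0.46, adjusted p = 0.000299) and Sesn1 from 10.77 to 13.04 (-2.45 ± 0.49, adjusted p = 0.00245). Foxo3, Tfe3 and Mitf, factors that act on Bcl2l11 or Bcl2, were higher on day 6 with M-CSF by 1.33, 1.28 and 1.09, and their interaction terms were -1.82, -1.97 and -1.31. Their part in the M-CSF day differences of Bcl2 (-2.07) and Bcl2l11 (1.43) was not tested.

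Cycs was lower on day 6 with M-CSF. It was 15.29 on day 3 and 12.24 on day 6 with M-CSF, while it stayed between 16.80 and 17.35 with RANKL (3.04 ± 0.42, adjusted p = 0.000145). Its mitochondrial companion Aifm1 changed by -1.55 with M-CSF (1.73 ± 0.54, adjusted p = 0.0317). Birc5, which encodes the mitotic protein survivin, changed by -1.17 with M-CSF (1.54 ± 0.49, adjusted p = 0.0361). The genes of this paragraph and the last rest on 1 M-CSF array a day, and with signals raised to the brightest background 8 of the 22 genes still tested passed.

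In the cultures with RANKL, Cdkn1a was 0.81 higher on day 6 (adjusted p = 0.0391) and Sesn2 lower at -0.77 (adjusted p = 0.0487), both by limma. Sesn2 was lost when any of the 6 arrays was left out, and Cdkn1a when any of the 4 arrays with PSS1 was.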
